A study of Mus musculus with 40 samples.

Results

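The transcripts of the glucocorticoid receptor and of 8 genes that it controls or that control its hormone were followed in mouse liver, over 4 groups of diet and treatment. The 9 genes were taken by symbol from a table of 32544 genes: Nr3c1, which encodes the receptor; Hsd11b1 and Serpina6, which act on its hormone; Fkbp5, Tsc22d3 and Sgk1, which are textbook targets; and Dusp1, Errfi1 and Cdkn1a, which hormone also induces but which answer to other signals as well. All 9 passed the filter on low counts. The liver RNA came from male C57BL/6 mice raised germ-free, that is without microbes, and sampled at postnatal day 64. Each mouse had received delta-valerobetaine (VB), a trimethylated compound known as a product of gut bacteria, or vehicle for 6 weeks. They were fed a control diet or a Western diet. This gave control diet vehicle, control diet VB, Western diet vehicle and Western diet VB groups of 5 mice each, and all 20 mice shared the germ-free state. The design asks what VB changes on each diet, and whether the effect depends on the diet.

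Glucocorticoids, chiefly corticosterone in mice, enter cells and bind a receptor that Hsp90 and its co-chaperones hold ready in the cytoplasm. The bound receptor moves to the nucleus, where it binds a palindromic element made of a pair of hexamers and raises or lowers transcription. In liver it is best known for raising genes of amino acid breakdown and glucose production, and the hormone itself follows a daily rhythm. Some targets feed back on the pathway: the Fkbp5 protein, a co-chaperone, lowers the receptor's affinity for hormone. Corticosterone was not analysed here.

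Promoter sequences are shown for the 3 textbook targets, because the results turn on Fkbp5 and Tsc22d3 differing in opposite directions and because Sgk1 is the only one of the genes with a full receptor element in these windows. RefSeq promoters on GRCm38.p6 ran from 250 bases before to 50 bases after a start site. For 7 of the 9 genes, 16 such windows were searched. The set searched held no window of Nr3c1 or Serpina6. Their promoters were therefore not examined, and the absence of a match for them says nothing about their elements. Capitals mark the hexamer AGAACA, an arm of the receptor's element, or TGTTCT where it lies on the other strand, and the E-box CACGTG, the motif of clock factors.
Sgk1, chr10:21993640-21993939, plus strand: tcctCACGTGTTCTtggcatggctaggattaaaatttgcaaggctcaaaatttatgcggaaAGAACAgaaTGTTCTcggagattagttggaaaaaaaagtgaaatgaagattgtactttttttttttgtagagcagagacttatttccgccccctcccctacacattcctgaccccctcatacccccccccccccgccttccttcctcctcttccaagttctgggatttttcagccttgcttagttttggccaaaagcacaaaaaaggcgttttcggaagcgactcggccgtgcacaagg
Tsc22d3, chrX:140600473-140600772, minus strand: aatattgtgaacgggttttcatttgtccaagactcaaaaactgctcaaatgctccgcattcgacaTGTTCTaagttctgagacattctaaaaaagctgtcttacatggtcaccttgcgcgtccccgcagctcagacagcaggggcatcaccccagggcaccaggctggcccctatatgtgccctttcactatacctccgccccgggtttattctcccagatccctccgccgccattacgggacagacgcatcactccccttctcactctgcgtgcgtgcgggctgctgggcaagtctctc
Fkbp5, chr17:28486100-28486399, minus strand: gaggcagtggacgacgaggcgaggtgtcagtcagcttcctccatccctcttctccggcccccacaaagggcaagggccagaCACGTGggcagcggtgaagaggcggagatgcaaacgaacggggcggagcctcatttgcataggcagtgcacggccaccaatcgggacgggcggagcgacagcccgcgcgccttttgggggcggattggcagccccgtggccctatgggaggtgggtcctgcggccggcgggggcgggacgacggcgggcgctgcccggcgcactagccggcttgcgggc
The Sgk1 window holds both arms with 3 bases between them, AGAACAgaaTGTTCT, at positions -189 to -175 counted from the start site as 0. This element, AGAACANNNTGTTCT, reads the same on both strands and stood in 3 of 32851 promoters, or 0.00913%. An E-box and another hexamer overlap in the same Sgk1 window. The hexamer alone stood in 19% of the promoters searched, and among the 7 genes in windows of Sgk1 and Tsc22d3. The Tsc22d3 window shown, 1 of 3 for this gene, has its hexamer at -185. The E-box was found in 7.15% of the promoters searched, and in windows of Fkbp5, Sgk1 and Dusp1. The D-box TTATGTAA or its reverse complement was in 0.938% of the promoters searched and in no window of the 7 genes. These matches describe letters in short windows, and gene counts do not separate the start sites of Tsc22d3 or Sgk1.

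Summed counts per mouse ran from 16315342 to 24566686 over both lanes of its library, and values below are CPM, read counts scaled to library size with TMM factors. The summed CPM of 8 hepatocyte markers was 46583 to 72916, and of 6 adrenal or kidney genes 1.36 to 3.04. Summed adipocyte markers were 6.80 to 10.2 CPM in control diet vehicle mice and 41.3 to 288 in Western diet vehicle mice, mostly from Cfd; Adipoq, Plin1, Lep, Retn and Adig were below the filter. Mitochondrial transcripts took 4.62% of counts in Western diet vehicle mouse 4 and at most 3.33% in any other. Major urinary protein (Mup) genes took 15.8% to 25.2% of counts in Western diet VB mice and 6.25% to 13.7% in all others. The leading principal component of 21 clock genes, scaled to SD 1 with Dbp positive, served as a clock score. Its group means were -1.30 ± 0.39 (SD, n = 5) for vehicle and -0.22 ± 0.26 for VB on the control diet. On the Western diet they were 1.29 ± 0.13 for vehicle and 0.23 ± 0.42 for VB. No collection time is given, and the part of these differences in the results below was not tested beyond the fits with the score as a covariate. Library names differ in form between diets, so a handling batch and diet cannot be told apart. In bulk liver, fewer cells of a type and less RNA per cell cannot be told apart.

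On GRCm38, with GENCODE gene models, Nr3c1 lies on chromosome 18, 39410545 to 39519421 on the minus strand, Hsd11b1 on chromosome 1, 193221634 to 193264075 on the minus strand and Serpina6 on chromosome 12, 103646630 to 103657212 on the minus strand. Fkbp5 lies on chromosome 17, 28399094 to 28517527 on the minus strand, Tsc22d3 on chromosome X, 140539528 to 140600659 on the minus strand and Sgk1 on chromosome 10, 21882184 to 21999903 on the plus strand. Dusp1 lies on chromosome 17, 26505590 to 26562128 on the minus strand, Errfi1 on chromosome 4, 150853919 to 150868892 on the plus strand and Cdkn1a on chromosome 17, 29090976 to 29100727 on the plus strand. The annotated spans of Fkbp5, Dusp1, Hsd11b1, Errfi1 and Cdkn1a overlap other annotated genes, among them Ergic1 at Dusp1 and Lamb3 at Hsd11b1. With strand use not given in the sources used here, reads of such overlaps cannot be told apart.

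Per kilobase of merged exons, the average of the 4 group means was highest for Errfi1 at 306 CPM per kb, then Hsd11b1 at 134, Serpina6 at 97.03 and Tsc22d3 at 55.5. Cdkn1a at 15.2, Dusp1 at 12.96 and Fkbp5 at 9.48 lay close together, followed by Nr3c1 at 5.95 and Sgk1 at 2.49. By these averages the receptor transcript was scarcer, per length, than all of the others except Sgk1, while in Western diet vehicle mice Dusp1 at 5.89 CPM per kb also lay below Nr3c1 at 6.35. By the length of the longest transcript, Fkbp5 (23.3) lay above Dusp1 (18.5), and the rest of the order was as given. The order among Cdkn1a, Dusp1 and Fkbp5 differed between the groups, from Cdkn1a highest in control diet vehicle mice to Fkbp5 highest in Western diet vehicle mice.

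The plot of all 9 genes by mouse gives each value, and the plot of changes gives each comparison. Overlap of groups was looked at for these genes only. How many of all genes tested separate likewise was not counted, so a lack of overlap does not set the 9 apart.

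**Figure D1:**
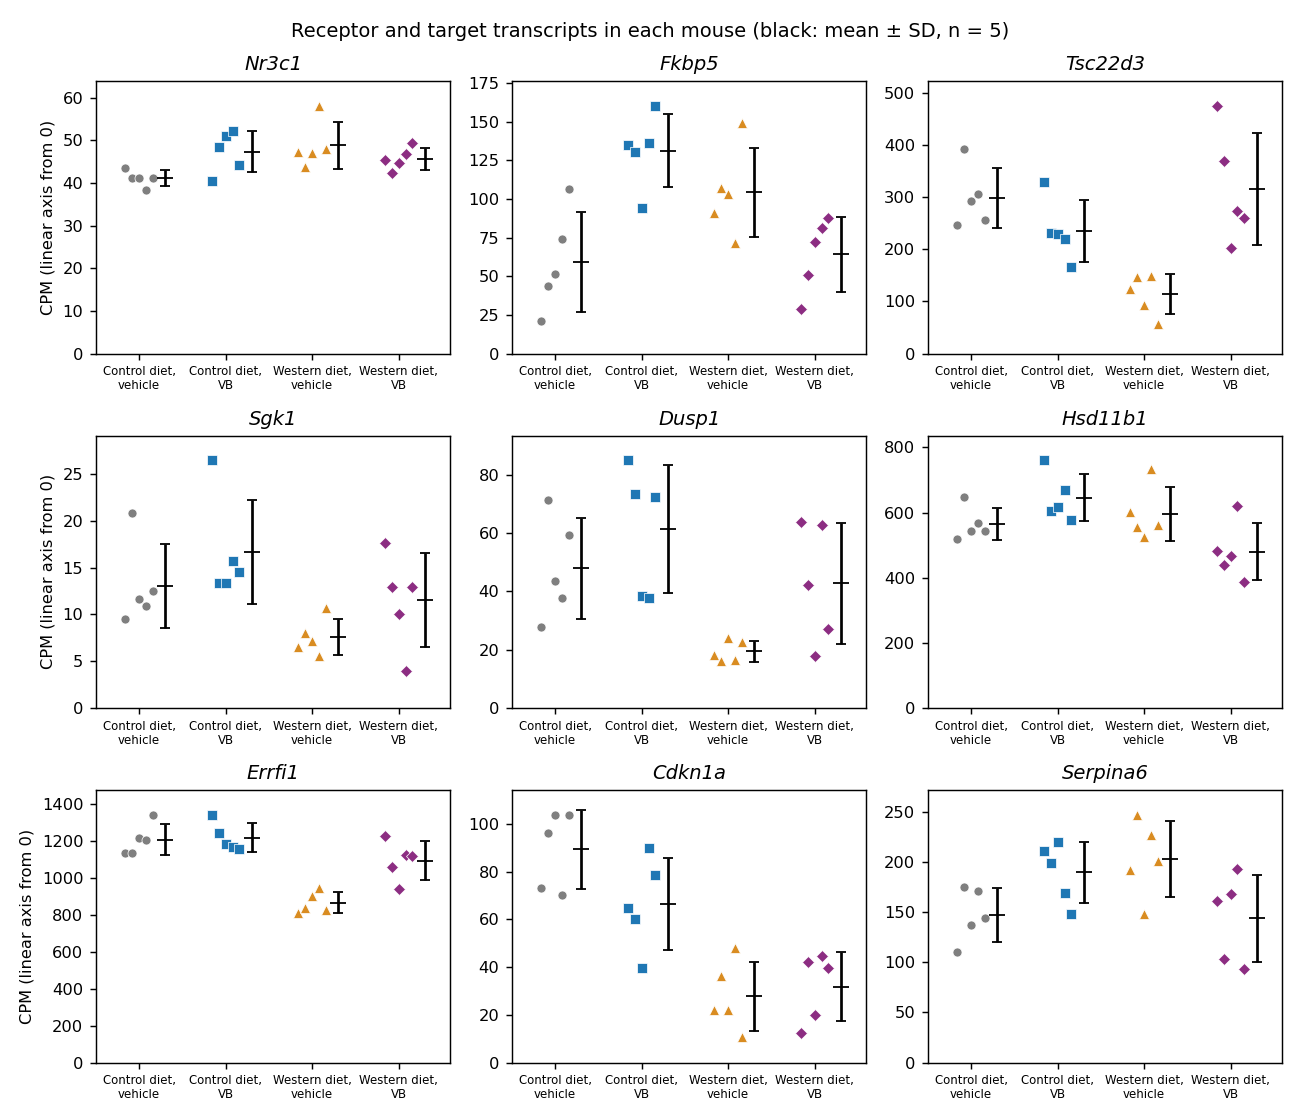
CPM (vertical axes, linear from 0) of the 9 genes in each of 20 mice, by group, with the mean ± SD (n = 5) in black. Points are set side by side by mouse number, to which no label gives a meaning shared between groups. Tsc22d3, Dusp1, Errfi1 and Cdkn1a are all lower in each Western diet vehicle mouse than in every control diet vehicle mouse, and Tsc22d3 is higher again in all Western diet VB mice. The share of all genes tested that separate in this way was not counted.

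**Figure D2:**
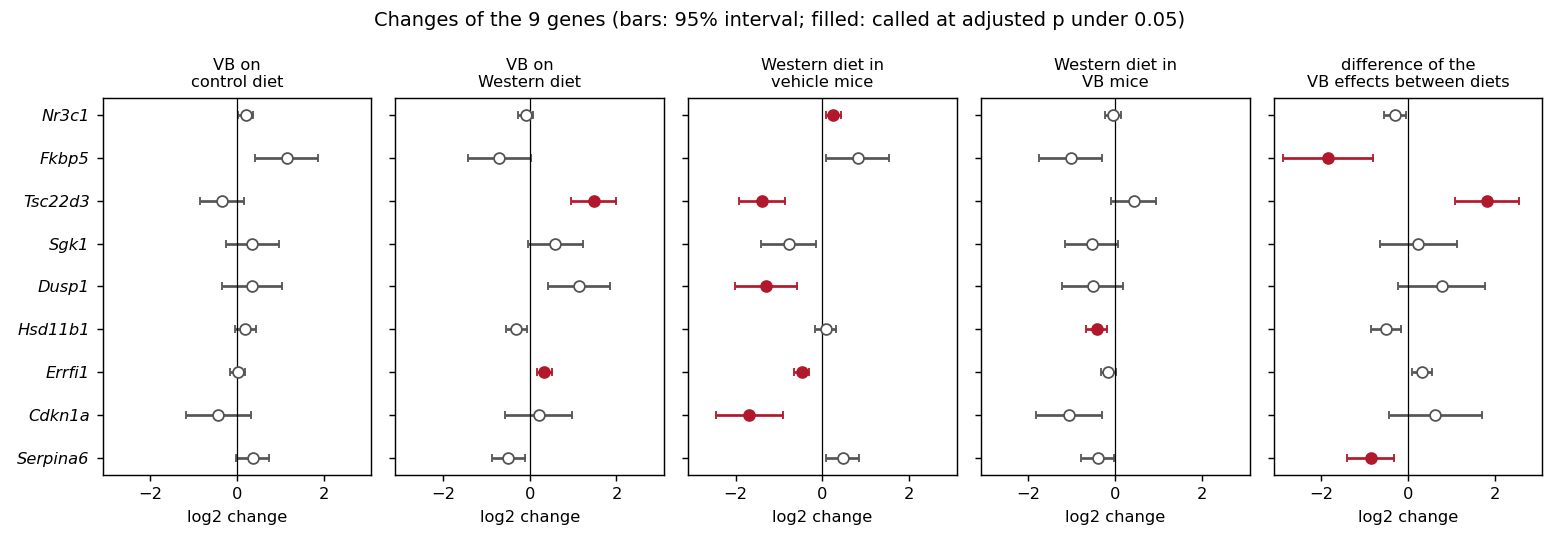
Log2 change (horizontal axes) of the 9 genes in 5 comparisons, with 95% intervals from edgeR's quasi-likelihood fit; filled red points have an adjusted p under 0.05. No gene is filled for VB on control diet, and Fkbp5 and Tsc22d3 lie on opposite sides of 0 in the difference of the VB effects.

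For VB on the control diet, none of the 9 genes was called in edgeR's quasi-likelihood test, where 19 of all 12616 genes tested, or 0.151%, were called at an adjusted p under 0.05. At an unadjusted p under 0.05, 1354 genes stood, among them Nr3c1 and Fkbp5. DESeq2 also called none of the 9, and limma-voom with quality weights called Fkbp5. The median log2 change of the 9 genes was 0.20, against 0.002 over all genes tested. Fkbp5 had the largest estimate, 1.14 (SE 0.35, adjusted p = 0.212), and its 95% interval ran from 0.41 to 1.88.

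VB on the Western diet raised 2 of the 9 genes, Tsc22d3 and Errfi1, where 7.19% of all genes tested were called. The Western diet itself changed 5 of 9 in vehicle mice: Nr3c1 rose, a call kept in only 4 of 20 fits that each left out a mouse, and Tsc22d3, Dusp1, Errfi1 and Cdkn1a fell. In that comparison 16.5% of all genes tested were called. The median log2 change of the 9 was 0.20 for VB on the Western diet and -0.48 for the diet in vehicle mice, against -0.02 and 0.02 over all genes. In VB mice the diet changed 1 of 9, Hsd11b1, which fell, where 6.44% of all genes were called. The VB effects differed between the diets for 3 of 9, Fkbp5, Tsc22d3 and Serpina6, where 7.64% of all genes were called. The medians of the 9 in these comparisons were -0.43 and 0.24, against 0.002 and -0.02 over all genes. These comparisons share groups of mice, so they are not separate evidence. No test of the 9 as a list was made. When the clock score entered as a covariate, 0 of 9 were called for VB on either diet, for the diet in vehicle mice and for the difference, and 2 of 9, Hsd11b1 and Serpina6, for the diet in VB mice. In that fit Tsc22d3 had changes of 1.70 (SE 0.39) for VB on the Western diet and -1.95 (SE 0.82) for the diet in vehicle mice, and Errfi1 of 0.44 (SE 0.13) and -0.74 (SE 0.27). Dusp1 had -2.74 (SE 1.13) and Nr3c1 0.52 (SE 0.29) for the diet in vehicle mice, and Fkbp5 had -1.49 (SE 1.15) for the difference. These changes kept their sign and had larger SEs than without the score, and for all of them except Fkbp5 the estimate was larger too. Not all called changes kept their sign in that fit. Cdkn1a turned to 0.35 for the diet in vehicle mice, and Serpina6 to 0.63 for the difference.

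Nr3c1, the receptor transcript, had small changes. It stood at 43.6, 41.1, 41.2, 38.3 and 41.3 CPM in control diet vehicle mice 1 to 5, and at 47.3, 43.6, 47.1, 58.1 and 47.9 in Western diet vehicle mice 1 to 5. All such series run from mouse 1 to 5, and no label gives these numbers a meaning shared between groups. Same-numbered mice still matched more often than numbers that carry nothing would give, as described at the end. The lowest Western diet vehicle mouse was barely above the highest control diet one. Nr3c1 was 1.19-fold higher on the Western diet, from 41.1 ± 1.87 to 48.8 ± 5.45 CPM (SD, n = 5), a log2 change of 0.25 (SE 0.08, adjusted p = 0.0477). This call was kept in only 4 of the 20 fits that each left out a mouse, those without control diet VB mouse 1 or 4, Western diet vehicle mouse 2 or Western diet VB mouse 5. Without any of the other 16 mice it was lost, at log2 changes of 0.17 to 0.27 and an adjusted p of up to 0.136, and it was also lost with RLE (adjusted p = 0.0605) or upper-quartile scaling (0.0608), Mup genes left out (0.0623), limma-voom (0.0786), a fit of only the groups compared (0.103), no filter (0.141) and lane 1 alone (0.146). Nr3c1 stood at 40.6, 48.5, 51.03, 52.1 and 44.3 CPM in control diet VB mice and at 45.4, 42.2, 44.6, 46.7 and 49.3 in Western diet VB mice. Those groups overlapped each other, and VB had log2 changes of 0.20 (SE 0.08, adjusted p = 0.381) on the control diet and -0.10 (SE 0.08, adjusted p = 0.594) on the Western diet. The 95% intervals were 0.03 to 0.38 and -0.27 to 0.08.

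Hsd11b1 encodes the enzyme that turns inert 11-dehydrocorticosterone back into corticosterone inside liver cells. Its transcript stood at 760.2, 605, 616, 670.5 and 576 CPM in control diet VB mice and at 482, 440.0, 467, 621 and 387 in Western diet VB mice. Only Western diet VB mouse 4 reached into the control diet range. In VB mice Hsd11b1 fell 1.35-fold with the Western diet, from 646 ± 72.7 to 479.6 ± 87.2 CPM (SD, n = 5), with a log2 change of -0.43 (SE 0.12, adjusted p = 0.0278). The call was lost without control diet VB mouse 1 (-0.36, adjusted p = 0.0811) or 4 (-0.42, 0.0647), or without Western diet VB mouse 2 (-0.41, 0.0556), 3 (-0.42, 0.0545) or 5 (-0.36, 0.0713). In vehicle mice Hsd11b1 stood at 520.3, 648, 544, 567 and 542 CPM on the control diet and 602, 554, 524, 733 and 562 on the Western diet. Those ranges overlapped, and the 95% interval of the log2 change was -0.16 to 0.32. The VB effects of 0.19 on the control diet and -0.31 on the Western diet had opposite signs, and their difference of -0.51 (SE 0.16, adjusted p = 0.0613) missed the threshold. Without control diet vehicle mouse 2 (-0.56, adjusted p = 0.048) or Western diet VB mouse 4 (-0.62, 0.0111) it passed, as it did with DESeq2 (-0.50, 0.0366) and limma-voom (-0.46, 0.0225). Without Western diet VB mouse 4 the VB effect on the Western diet also passed (-0.42, 0.0168).

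Serpina6 encodes corticosteroid-binding globulin, which hepatocytes secrete and which carries corticosterone in plasma. It stood at 109.8, 175, 137, 171 and 144 CPM in control diet vehicle mice and at 211, 199, 220.0, 169 and 148 in control diet VB mice. On the Western diet it stood at 192, 247, 148, 227 and 201 CPM with vehicle and 161, 103, 168, 193 and 93.1 with VB. All 4 ranges overlapped. The estimates for VB were 0.36 on the control diet and -0.50 on the Western diet, neither called, and their difference of -0.86 (SE 0.26, adjusted p = 0.0447) passed. That call was kept in 7 of the 20 fits that left out a mouse. It was lost without control diet vehicle mouse 1, 3 or 5, without control diet VB mouse 1, 2, 3 or 4, without Western diet vehicle mouse 1, 2, 4 or 5, and without Western diet VB mouse 2 or 5. Over the 20 fits the difference was -0.99 to -0.74 and the adjusted p 0.0185 to 0.0913. It was also lost with no filter on low counts (adjusted p = 0.0757), and with the clock covariate its sign turned, to 0.63 (adjusted p = 0.954). The diet change in vehicle mice, 0.46 (SE 0.18, adjusted p = 0.0921), passed without Western diet vehicle mouse 3 (0.56, 0.0464), and the VB change on the Western diet without Western diet VB mouse 4 (-0.63, 0.0403). Across the 20 mice, Serpina6 and Hsd11b1 had a Pearson r of 0.74, and of 0.70 after group means were subtracted.

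Fkbp5 and Tsc22d3 are both textbook targets of the receptor, yet the difference of their VB effects between the diets had opposite signs. Fkbp5 stood at 20.9, 43.6, 51.5, 74.2 and 106 CPM in control diet vehicle mice and at 135, 131, 94.2, 136 and 160.3 in control diet VB mice. Only control diet VB mouse 3 lay below the highest vehicle mouse. On the Western diet Fkbp5 stood at 91.05, 107, 103, 71.4 and 149 CPM with vehicle and at 28.6, 50.8, 72.4, 81.4 and 87.96 with VB. The VB mice lay lower on this diet, with overlap. Within the control diet vehicle and Western diet VB groups Fkbp5 rose with each mouse number, and within the other groups it did not. This order was not tested. The group means were 59.3 ± 32.5, 131 ± 23.8, 104 ± 28.6 and 64.2 ± 24.4 CPM (SD, n = 5) in control diet vehicle, control diet VB, Western diet vehicle and Western diet VB mice.

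The VB effect on Fkbp5 was a log2 change of 1.14 on the control diet and -0.70 (SE 0.35, adjusted p = 0.274) on the Western diet, and neither was called. Their difference was called, at -1.84 (SE 0.49, adjusted p = 0.0286), a 3.59-fold gap with a 95% interval of -2.88 to -0.81. It held in 16 of the 20 fits without a mouse. It missed without control diet vehicle mouse 2 (-1.75, adjusted p = 0.0516) or 3 (-1.80, 0.0507), Western diet vehicle mouse 5 (-1.68, 0.058) or Western diet VB mouse 2 (-1.77, 0.0521). The Western diet change of Fkbp5 was 0.81 (SE 0.35, adjusted p = 0.125) in vehicle mice. In VB mice it was -1.03 (SE 0.35, adjusted p = 0.0879), and there the groups did not overlap, although the test was not passed. Leaving out control diet vehicle mouse 5 brought the change in vehicle mice to 1.13 (adjusted p = 0.0284), and leaving out control diet vehicle mouse 1 brought the adjusted p in VB mice to 0.0381. The change in VB mice also passed with DESeq2 (-1.03, adjusted p = 0.0413) and limma-voom (-1.10, 0.0426), and that in vehicle mice with limma-voom (0.99, 0.0484). With no filter on low counts the difference missed (adjusted p = 0.0593).

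Tsc22d3 encodes GILZ, a leucine zipper protein through which glucocorticoids curb inflammation. It stood at 124, 147, 93.1, 149 and 57.5 CPM in Western diet vehicle mice and at 475, 369.9, 203, 273 and 261 in Western diet VB mice. Every VB mouse was above every vehicle mouse. VB raised Tsc22d3 2.78-fold on this diet, from 114 ± 38.7 to 316 ± 107 CPM (SD, n = 5), a log2 change of 1.47 (SE 0.25, adjusted p = 0.00144). On the control diet Tsc22d3 stood at 247, 392, 292, 306 and 257 CPM with vehicle and at 329, 232, 229.7, 220.1 and 166 with VB. These ranges overlapped, with a log2 change of -0.34 (SE 0.25, adjusted p = 0.651). In vehicle mice the Western diet lowered Tsc22d3 2.62-fold without overlap, a log2 change of -1.39 (SE 0.25, adjusted p = 0.000573). The VB effects differed between diets by 1.82 (SE 0.35, adjusted p = 0.00331). These 3 calls held in all 20 fits that left out a mouse, with the difference at 1.63 to 1.97, and were lost with the clock covariate, where the difference was 2.28 (adjusted p = 0.616). In VB mice the log2 change of Tsc22d3 with the diet was 0.43 (SE 0.25, adjusted p = 0.33).

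Taken per mouse, the log2 ratio of Fkbp5 to Tsc22d3 CPM was -1.06 to 1.38 in Western diet vehicle mice and -4.06 to -1.49 in Western diet VB mice, with no overlap. On the control diet it was -3.57 to -1.27 with vehicle and -1.29 to -0.05 with VB, so those groups overlapped only at the edge. The ratio was chosen after the values were seen, so it has no test. Over the 20 mice the log2 levels of Fkbp5 and Tsc22d3 had a Pearson r of -0.53, and of -0.46 after group means were subtracted. Points in this r share group and library preparation.

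**Figure D3:**
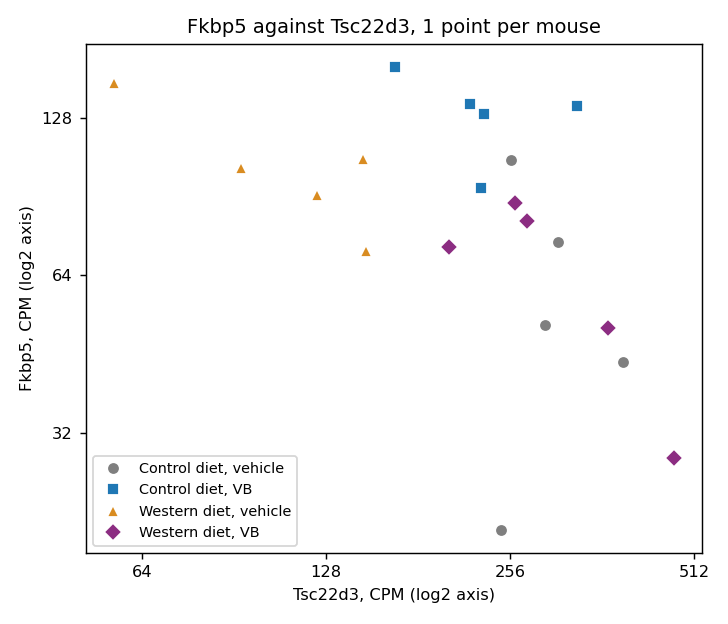
Fkbp5 (vertical) against Tsc22d3 (horizontal) CPM, both on log2 axes, 1 point per mouse, marked by group. Western diet vehicle mice lie at the upper left and Western diet VB mice at the lower right, with Tsc22d3 of 57.5 to 149 and 203 to 475 CPM.

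Sgk1, the serum- and glucocorticoid-regulated kinase, was the scarcest of the genes and passed in no comparison. It stood at 9.50, 20.9, 11.7, 10.9 and 12.5 CPM in control diet vehicle mice and at 26.5, 13.4, 13.4, 15.8 and 14.6 in control diet VB mice. A single mouse in each of these groups lay well above the others, vehicle mouse 2 and VB mouse 1. On the Western diet Sgk1 stood at 6.51, 7.97, 7.20, 5.58 and 10.7 CPM with vehicle and at 17.6, 12.98, 10.02, 3.96 and 12.98 with VB. Western diet VB mouse 4 was the lowest of all 20 mice. The diet change in vehicle mice was -0.78 (SE 0.30, adjusted p = 0.0894), and the VB change on the Western diet 0.59 (SE 0.31, adjusted p = 0.29). Without Western diet VB mouse 4 both were called, at -0.78 (adjusted p = 0.0255) and 0.81 (adjusted p = 0.0473). The diet change also passed with DESeq2 (adjusted p = 0.0374) and in a fit of only the groups compared (0.0356). The window shown above with the full receptor element belongs to this gene.

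Dusp1 encodes a phosphatase that switches off MAP kinases. It stood at 27.9, 71.2, 43.7, 37.6 and 59.3 CPM in control diet vehicle mice and at 18.1, 15.99, 24.03, 16.6 and 22.7 in Western diet vehicle mice. The groups did not overlap, and the Western diet mice were close together. Dusp1 fell 2.46-fold, from 47.97 ± 17.3 to 19.5 ± 3.66 CPM (SD, n = 5), a log2 change of -1.30 (SE 0.34, adjusted p = 0.0134) that held in all 20 fits without a mouse. With VB, Dusp1 stood at 84.9, 73.4, 38.4, 37.7 and 72.2 CPM on the control diet and at 63.8, 42.3, 17.96, 62.8 and 27.1 on the Western diet. Both VB groups spread widely. The VB change on the Western diet, 1.13 (SE 0.34, adjusted p = 0.0529), missed the threshold. It passed with DESeq2 (adjusted p = 0.0152), with 3 other settings (0.0449 to 0.0497), and without control diet vehicle mouse 1 (0.0459) or 2 (0.0488) or Western diet VB mouse 3 (0.0145) or 5 (0.0486). On the control diet the VB change was 0.35 (SE 0.33, adjusted p = 0.748).

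Errfi1 encodes MIG6, an inhibitor of the EGF receptor, and was the most abundant of the 9 per kilobase, with a coefficient of variation of 6.30% to 9.72% within groups. It stood at 1136, 1136, 1219, 1208 and 1341 CPM in control diet vehicle mice and at 812, 841, 903, 946 and 826 in Western diet vehicle mice, without overlap. It fell 1.40-fold with the diet, a log2 change of -0.48 (SE 0.08, adjusted p = 0.000227). With VB it stood at 1344, 1243, 1184, 1167 and 1159 CPM on the control diet and at 1228, 1058, 938, 1125 and 1119.8 on the Western diet. VB raised it 1.26-fold on the Western diet, from 866 ± 56.7 to 1094 ± 106 CPM (SD, n = 5), a log2 change of 0.34 (SE 0.08, adjusted p = 0.0129). Western diet VB mouse 3 lay within the vehicle range. Both calls held in all 20 fits that left out a mouse, and the rise with VB was lost when only those 2 groups were fitted (0.34, adjusted p = 0.0784). The difference of its VB effects, 0.32 (SE 0.12, adjusted p = 0.0937), passed without Western diet vehicle mouse 4 (0.36, 0.031) or Western diet VB mouse 3 (0.38, 0.0489), with DESeq2 (0.33, 0.026) and with limma-voom (0.30, 0.0482). On the control diet the VB change of Errfi1 was 0.01, with a 95% interval of -0.16 to 0.18.

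Cdkn1a encodes p21, which stops the cell cycle and is a target of p53 as well as of glucocorticoids. It stood at 73.1, 96.1, 104, 70.3 and 104 CPM in control diet vehicle mice and at 21.9, 36.1, 22.00, 48.1 and 10.9 in Western diet vehicle mice, without overlap. This 3.22-fold fall was the largest diet effect among the 9 in vehicle mice, from 89.4 ± 16.5 to 27.8 ± 14.5 CPM (SD, n = 5), a log2 change of -1.69 (SE 0.37, adjusted p = 0.00384). The call held in all 20 fits without a mouse, and with the clock covariate the sign turned, to 0.35 (adjusted p = 0.996). With VB, Cdkn1a stood at 64.6, 60.01, 39.5, 89.8 and 78.7 CPM on the control diet and at 12.6, 42.3, 19.9, 44.7 and 39.8 on the Western diet. In VB mice the diet change was -1.06 (SE 0.36, adjusted p = 0.0915), and it passed with limma-voom (-1.23, adjusted p = 0.0261). VB had changes of -0.43 (SE 0.36, adjusted p = 0.708) on the control diet and 0.20 (SE 0.36, adjusted p = 0.83) on the Western diet, neither called.

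Other genes that glucocorticoids are known to induce split in the same comparisons. Changes of these and other list genes are given as log2 changes. The counts called in each list stand beside shares over all genes tested. For VB these were 0.151% on the control diet and 7.19% on the Western diet. For the diet they were 16.5% in vehicle mice and 6.44% in VB mice, and for the difference 7.64%. Of 34 such genes, all tested, VB on the Western diet raised 6 and lowered 2, with a median log2 change of 0.27. Tat, the tyrosine aminotransferase that is the classic hepatic glucocorticoid target, rose by 1.98 (SE 0.26, adjusted p = 0.000246), from 636 ± 169 to 2517 ± 660.0 CPM (SD, n = 5). Klf15, a transcription factor of amino acid breakdown, rose by 0.71, the amino acid transporter Slc38a2 by 0.90, and Pck1 of glucose production by 0.73. The metallothioneins Mt1 and Mt2 were the 2 that fell, with changes of -2.25 (SE 0.62, adjusted p = 0.0362) and -2.42 (SE 0.70, adjusted p = 0.0456). Those 2 calls were lost in 8 alternative fits for Mt1 and 16 for Mt2.

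The Western diet in vehicle mice raised 6 of the 34 and lowered 9, with a median of -0.09. Tat fell, with a change of -1.91 (SE 0.26, adjusted p = 3.07e-05), from 2383 ± 650.1 CPM, and so did Got1 (-0.66), an aspartate aminotransferase. Per2, a clock gene, rose by 1.58, Lcn2, an acute-phase protein gene, by 3.33, and Mt1 and Mt2 by 2.85 and 2.90. Tat changed in the direction of Tsc22d3 and the metallothioneins in the direction of the Fkbp5 estimates. For VB on the control diet 0 of the 34 were called in edgeR, with 0.63 (SE 0.14, adjusted p = 0.0658) for Per1 and 0.48 (SE 0.11, adjusted p = 0.0756) for Klf9, both rapid targets of the receptor. In VB mice the Western diet raised 1, Per2 (0.84), and lowered 2, Got1 (-0.87) and Lpin1 (-1.09). The VB effects differed between diets for 7 of the 34. The difference was higher on the Western diet for 3, among them Tat (1.95) and Irs2 (0.97). It was lower for 4, among them Mt1 (-4.12), Mt2 (-4.47) and Klf9 (-0.55), the last lost in 14 alternative fits.

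**Figure D4:**
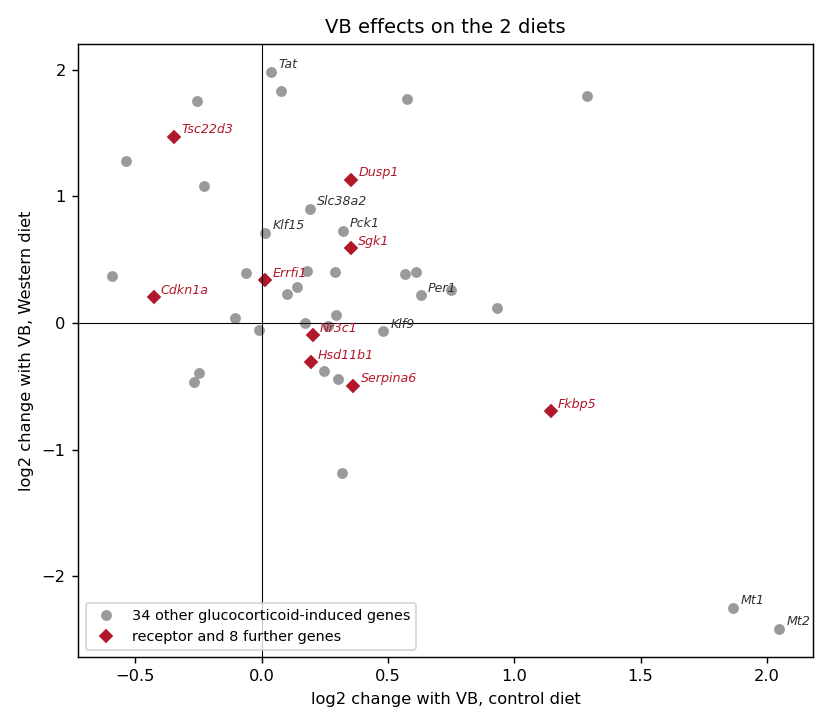
Log2 change with VB on the control diet (horizontal) and on the Western diet (vertical) for the 9 genes (red diamonds) and 34 other glucocorticoid-induced genes (grey circles). Tat and Tsc22d3 lie high near the vertical axis, while Fkbp5, Mt1 and Mt2 lie to the lower right.

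Several chaperones that serve the receptor rose with VB on the Western diet and fell with that diet in vehicle mice. Of 17 chaperones and co-chaperones, VB on the Western diet raised 7 and lowered 0, and the Western diet in vehicle mice lowered 7 and raised 0. Hspa1a, an inducible Hsp70, rose by 3.05 (SE 0.39, adjusted p = 0.000132) with VB and fell by 3.17 on the log2 scale with the diet. Bag3 (change of 1.12 with VB), Dnajb1 (1.08) and Hspa1b (2.70) also rose with VB and fell with the diet. Hspa1a and Hspa1b are near-identical copies, so the split of reads between them is uncertain. Fkbp4, the co-chaperone that competes with the Fkbp5 protein on Hsp90, rose by 0.35 (SE 0.08, adjusted p = 0.00594) with VB and fell with the diet, with a change of -0.32 (SE 0.08, adjusted p = 0.00552). Its VB effects differed between diets by 0.54 (SE 0.11, adjusted p = 0.00336), opposite in sign to the -1.84 of Fkbp5. Hsp90aa1, the main inducible Hsp90 gene, had a VB change of 0.44 (SE 0.19, adjusted p = 0.188) on the Western diet. Hspa8 (0.66 with VB and -0.71 with the diet) and Stip1 (0.42 and -0.31) were also called in both comparisons. The remaining list genes were called in neither, among them Hsp90ab1, Ptges3 and Ppid. Their VB changes on the Western diet were 0.14, 0.08 and 0.19. On the control diet VB lowered 1 of the 17, Hspa1a, with a change of -2.00 (SE 0.35, adjusted p = 0.0165). The VB effects differed for 6, all higher on the Western diet, and in VB mice the diet raised 2, Bag3 (0.87) and Hspa1a (1.88).

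Of 22 coregulators and partners of the receptor, VB on the Western diet raised 2, Crebbp (0.34) and Ep300 (0.46), both histone acetyltransferases, and lowered Smarca4 (-0.38). The Western diet in vehicle mice raised 3 and lowered 2, with Smarca4 at 0.63, Nr3c2 at 0.71, Cebpa at 0.33, Stat5b at -0.70 and Ppargc1a at -0.85. Nr3c2, the mineralocorticoid receptor, which also binds corticosterone, was low in all groups, at 3.68 ± 0.541 CPM in control diet vehicle and 6.02 ± 0.628 CPM in Western diet vehicle mice. In VB mice the diet raised Nr3c2 (0.88) and Smarca4 (0.33), and for VB on the control diet 0 of 22 were called. The VB effects differed for Cebpa alone, at -0.48.

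Of 11 genes of corticosteroid metabolism, 10 were tested; Hsd11b2, which inactivates the hormone, was below the filter. For VB on the control diet 0 of 10 were called. VB on the Western diet raised 2, Hsd3b5 (1.38) and Ugt2b1 (0.55), and lowered Cyp3a11 (-1.54), a steroid-hydroxylating cytochrome. The diet in vehicle mice raised Cyp3a11 (1.15) and lowered Hsd3b5 (-0.98), and in VB mice raised Ugt2b1 (0.76). H6pd, which supplies the cofactor of the Hsd11b1 enzyme, had a diet change of -0.32 (SE 0.14, adjusted p = 0.18) in VB mice. The VB effects differed for 4, higher on the Western diet for Hsd3b5, Ugt2b1 and the steroid reductase Srd5a1 (0.55) and lower for Cyp3a11.

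Clock genes were called in all 5 comparisons. Of 21, VB on the control diet raised 2 and lowered 1, and on the Western diet raised 4 and lowered 4. Nfil3 (1.31) and Arntl (1.84) rose there and Wee1 (-1.92) fell. The Western diet in vehicle mice raised 11 and lowered 6, with Wee1 at 3.35, Nfil3 at -1.76 and Npas2 at -4.98. In VB mice the diet raised 1 and lowered 2, and the VB effects differed for 13, 4 higher and 9 lower. Over the 20 mice the clock score had its strongest r with Cdkn1a (-0.79), Errfi1 (-0.73) and Tsc22d3 (-0.62), and the r was 0.37 with Fkbp5. After group means were subtracted, r was 0.69 for Serpina6 and -0.47 for Cdkn1a, the genes among the 9 whose called changes turned in sign with the score as a covariate. For the other 7 genes it then lay between -0.27 and 0.29, with 0.12 for both Tsc22d3 and Fkbp5.

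The remaining lists hold genes linked to Cdkn1a, Dusp1 and Errfi1. Beside their counts, 16.5% of all genes tested were called for the diet in vehicle mice and 7.19% for VB on the Western diet. Of 20 further p53 targets, the Western diet in vehicle mice raised 5 and lowered 3: Eda2r (2.36), Aen (0.70) and Ccng1 (0.46) rose, Trp53inp1 (-1.32) fell, and Mdm2 had -0.26 (SE 0.13, adjusted p = 0.183). VB on the Western diet raised 1, Trp53inp1 (1.16), and lowered 1, Eda2r (-2.07), and on the control diet 0 were called. Of 23 immediate-early genes tested, 0 were called for VB on either diet, and the Western diet in vehicle mice lowered 1, Btg1 (-0.74). Fos had a diet change of -1.34 (SE 0.65, adjusted p = 0.181) and Egr1 of -1.54 (SE 0.77, adjusted p = 0.201), neither called. Of 17 tested genes of EGF receptor signalling, VB on the Western diet raised 1. This was Egfr, the receptor that MIG6 inhibits, with a change of 0.75 (SE 0.17, adjusted p = 0.00842). Egfr had 0.63 (SE 0.17, adjusted p = 0.124) with VB on the control diet. The Western diet in vehicle mice raised the ligand genes Nrg4 (1.35) and Btc (0.63) and lowered Tgfa (-0.46).

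Over the 20 mice, the 3 tested genes with the highest Pearson r of log2 CPM to each gene were taken; mice share group and library preparation, so no p is given. For Fkbp5 these were St3gal5 (r = 0.92), Gpt2 (0.89) and Rapgef4 (0.88), and for Tsc22d3 they were Proser2 (0.93), Dnajb1 (0.91) and Tat (0.91). Sgk1 was followed most closely by Rasgef1b (0.89), Dusp1 by Csrnp1 (0.84), with Errfi1 also among its 3 (0.83), and Errfi1 by AA986860 (0.87). Cdkn1a was nearest to Tubb5 (0.89), Hsd11b1 to Mmadhc (0.88), Serpina6 to Susd1 (0.89) and Nr3c1 to Eif4ebp3, at 0.77 the lowest of the 9. After group means were subtracted, Rapgef4 kept an r of 0.88 with Fkbp5, Tat 0.74 with Tsc22d3 and AA986860 0.49 with Errfi1. None of the 3 nearest genes of Fkbp5 was among those of Tsc22d3.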

How the data were processed

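The authors deposited whole-number read counts per gene for 40 lane files, 2 per mouse, which were summed because lanes differed far less (chi-square per degree of freedom 1.33 to 1.49) than mice of a group (17.7 to 146). Per the labels, libraries came from flash-frozen liver with a TruSeq kit; the submitters' processing notes name GRCm38 as the build, with aligner, counter and strand use not given in the sources used here. Groups follow the titles; 1 lane's treatment field says vehicle while its title says VB, and it was kept as VB. Genes were kept by filterByExpr (minimum count 10, total 15), leaving 12616, scaled by TMM and fitted over all 20 mice in edgeR 4.0.16 (R 4.3.3), with Benjamini-Hochberg adjustment over all genes tested and a threshold of 0.05. SE is the absolute log2 change over the root of F. Named list genes are up to 4 called genes of smallest p per list and comparison, plus some of a fixed set, not all of which are given. Mt1 and Mt2 are also given for VB and for diet outside that rule, after their values were seen. Hsp90ab1, Hspa8, Ppid, Ptges3 and Stip1 fall outside it too. The 9 genes and all lists were chosen with earlier results of these data known. Mouse numbers were not used as pairs, because no label gives them a shared source. Of 30 same-numbered pairs, 7 had deviations correlated over 0.1. The own number was still the best match in 28 of 60 checks, against about 12 if numbers carry nothing. Fits with a block by number changed some calls and are given at the end. P-values set a group difference against the spread between these mice. They do not cover a handling batch or a collection time that goes with the group. Alternatives used DESeq2 1.42.0 and limma 3.58.1, other scaling and filters, single lanes, a block and left-out mice; the clock score, also tried as a covariate, lay outside the range of both VB groups in every vehicle mouse. The procedure was tested on simulated data.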

Additional observations from a re-analysis of the deposited data

Results flagged for a closer look

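Among 36 groups of 5 mice checked, 2 held a mouse set apart from the rest by a gap above the Dixon critical value, and chance gives about 1 in 20. Both concern Sgk1: control diet vehicle mouse 2 had 20.9 CPM, and control diet VB mouse 1 had 26.5 CPM.

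The VB effect differed between the diets by the interaction test for 3 genes. The difference in log2 change, Western diet minus control diet, was -1.84 for Fkbp5, 1.82 for Tsc22d3 and -0.86 for Serpina6.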

How the results depend on the processing

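The 45 gene-by-comparison results of the 9 genes gave 1431 alternative values, of which 1322 kept direction and side of the threshold, 57 lost a call, 35 gained one and 17 turned. Of the 9 genes, the number called for VB on the control diet was 1 with limma-voom. For VB on the Western diet it was 1 in a fit of only the groups compared and 0 with the clock score. For the diet in vehicle mice it was 0 with the clock score. For the diet in VB mice it was 2 with DESeq2, 3 with limma-voom, 2 with the clock score and 2 with the replicate block. For the difference it was 5 with DESeq2, 5 with limma-voom, 1 with no filter and 0 with the clock score. Leaving out 1 mouse at a time gave 0 to 0 for VB on the control diet, 2 to 5 for VB on the Western diet, 4 to 5 for the diet in vehicle mice, 0 to 2 for the diet in VB mice and 1 to 4 for the difference. Over all genes, the count for VB on the control diet moved from 19 to 6, 11 or 66 without control diet vehicle mouse 1, 3 or 5, 10 or 8 without control diet VB mouse 3 or 4, 52 or 29 without Western diet vehicle mouse 4 or 5, 29 with upper-quartile scaling, 30 with Mup genes left out of library sizes, 66 in a fit of only the groups compared, 36 from lane 2, 164 with DESeq2 and 261 with limma-voom, and the share called higher from 36.8% to 53.3% with limma-voom. Without Western diet vehicle mouse 4 the difference moved from 964 to 1702 genes and the diet in VB mice from 813 to 1397, and the latter was 541 without control diet VB mouse 4. With limma-voom these were 1661 and 1421, and VB on the Western diet moved from 907 to 464 in a fit of only the groups compared. With the clock score the counts were 0 for VB on the control diet, 2 of 907 for VB on the Western diet, 28 of 2083 for the diet in vehicle mice and 1 of 964 for the difference.

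With the clock score as a covariate, signs turned for Cdkn1a (-1.08 for the difference, 0.40 and -0.69 for VB on the control and Western diet, 0.35 for the diet in vehicle mice), Dusp1 (-0.27) and Errfi1 (-0.094) for VB on the control diet, Hsd11b1 for the diet in vehicle mice (-0.34), and Serpina6 (0.63 for the difference, -0.41 and 0.22 for VB, -1.37 for the diet). For the diet in vehicle mice they also turned for Hsd3b5 (0.42), Klf9 (-0.34), Lcn2 (-1.22), Mt1 (-0.96), Mt2 (-1.05), Nrg4 (-0.13; 0.11 for the difference) and Wee1 (-0.45); the cause was not tested. Near 0, signs turned for Cdkn1a with VB on the Western diet (-0.00094 without Western diet vehicle mouse 5, up to 0.49 without another mouse), Errfi1 with VB on the control diet (-0.0075, -0.0072 and -0.023 without control diet vehicle mouse 1, 2 or VB mouse 1, up to 0.055), Hsd11b1 for the diet (-0.013 with limma-voom, -0.021 without Western diet vehicle mouse 4, up to 0.13) and Jun with VB on the Western diet (-0.13 without VB mouse 4).

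Mouse numbers were shared between groups, with correlations of deviations of -0.065 to 0.38 over 30 pairs, and the own number was the best match in 28 of 60 checks, where numbers that carry nothing would give about 12. With the replicate block, 0, 3, 5, 2 and 4 of the 9 genes and 65, 1067, 2312, 973 and 1146 of all genes were called, in the same order of comparisons. The block added Hsd11b1 for VB on the Western diet (-0.32, adjusted p = 0.0485) and for the difference (-0.50, 0.0259), and Fkbp5 for the diet in vehicle mice (0.94, 0.0306) and in VB mice (-1.12, 0.0252), and it lost Nr3c1 for the diet in vehicle mice (0.24, 0.0532). Depth limits Sgk1 most, with a mean of 140.4 counts in Western diet vehicle mice.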
